A study of Ovis aries with 9 samples.

Results

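Fragments of mitochondrial tRNAs were followed in sperm from F1 rams whose mothers had been kept on 3 feeding regimes. A sequence was taken as a member when its annotation named a mature mitochondrial tRNA and neither a nuclear tRNA nor an ovine miRNA. The rule found 3892 of 1296002 distinct sequences in the OVER library (69177 of 8287937 reads), 4328 of 1249810 in RES (124941 of 13160116 reads) and 3576 of 1311597 in CON (68714 of 9983895 reads). Over the 3 libraries together these were 7339 different sequences, of which 1571 occurred in every library, and these shared sequences held 249732 of the 262832 member reads. Every member carried exactly 1 annotation term, so no read was shared between mitochondrial tRNAs by name. All 22 mitochondrial tRNAs were found.

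The OVER group stands for over feeding, the RES group for restricted feeding and the CON group for standard feeding of the mothers. All rams are labelled wild type, and the material in every group is sperm from semen that was treated with a detergent buffer to lyse somatic cells before RNA extraction. The labels list 3 samples per group, but the 3 deposited tables of a group were alike in every sequence and read number, so each group was taken as 1 library. Whether such a table holds 1 sample or a pool of the 3 is not given in the labels. No comparison between groups therefore has a replicate check or a test, and every interval is a 95% interval that covers counting error only. Values are given as RPM, reads scaled to 1000000 reads of the library, and a count of 0 is read as at most 3 reads, which is 0.362 RPM in OVER, 0.228 RPM in RES and 0.301 RPM in CON. In a mixed sample fewer fragments per cell and fewer cells that carry them cannot be told apart. The OVER library was the shortest as a whole: reads of 15 to 20 nt made up 29.6% of all its reads, 10.3% in RES and 5.98% in CON.

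Mitochondria of mammals encode their own set of tRNAs, which serve only the translation of the few proteins made inside the organelle. The genes lie between the rRNA and protein genes on both DNA strands, long transcripts run through them, and the tRNAs are released by cutting at both ends, after which the CCA tail is added and many bases are modified. In mature sperm the mitochondria are packed into the midpiece, and tRNA fragments of cytosolic origin are among the most abundant small RNAs of these cells.

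The sequences below show where the fragments lie. Each tRNA was joined from its own reads, from the 5′ end, with the anticodon in capitals. The tRNAs shown are those whose fragments carry the results that follow, and the joined stretch of mt-Ser-TGA stops shortly after its anticodon because almost no read went further. No mitochondrial genome sequence was used, so positions are counted from 1 at the first base of the joined tRNA and not along a chromosome.
mt-Tyr-GTA joined: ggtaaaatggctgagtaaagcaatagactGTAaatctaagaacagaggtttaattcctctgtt
mt-Phe-GAA joined: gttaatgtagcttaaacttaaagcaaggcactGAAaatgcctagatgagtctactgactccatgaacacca
mt-Asn-GTT joined: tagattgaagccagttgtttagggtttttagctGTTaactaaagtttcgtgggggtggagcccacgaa
mt-Cys-GCA joined: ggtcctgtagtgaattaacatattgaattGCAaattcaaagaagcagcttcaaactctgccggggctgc
mt-Met-CAT joined: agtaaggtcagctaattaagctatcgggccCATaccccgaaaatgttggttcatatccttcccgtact
mt-Lys-TTT joined: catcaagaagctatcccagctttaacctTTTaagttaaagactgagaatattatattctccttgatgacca
mt-Ser-TGA joined: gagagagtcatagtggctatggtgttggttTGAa
mt-Ala-TGC joined: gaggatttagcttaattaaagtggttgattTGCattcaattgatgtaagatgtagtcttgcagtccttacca

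The fragments that were most abundant in each of these tRNAs, by mean RPM over the 3 libraries, are shown next, with any anticodon base they hold in capitals.
mt-Tyr-GTA: aatggctgagtaaagcaatagactGTA
mt-Phe-GAA: tagcttaaacttaaagcaaggcactG
mt-Asn-GTT: agtttcgtgggggtgga
mt-Cys-GCA: ggtcctgtagtgaattaaca
mt-Met-CAT: agtaaggtcagctaattaagctatcgggc
mt-Lys-TTT: aaagactgagaatatt
mt-Ser-TGA: gagagagtcatagtggctatggtgttgg
mt-Ala-TGC: gatgtaagatgtagtctt
These fragments start and end at different places. Those of mt-Cys-GCA, mt-Met-CAT and mt-Ser-TGA begin at the mature 5′ end, those of mt-Tyr-GTA and mt-Phe-GAA begin a few bases inside it and stop within the anticodon, and those of mt-Asn-GTT, mt-Lys-TTT and mt-Ala-TGC lie wholly on the 3′ side.

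Mitochondrial tRNA fragments were a small class in every library. They made up 0.835% (0.828 to 0.841%) of all reads in OVER, 0.949% (0.944 to 0.955%) in RES and 0.688% (0.683 to 0.693%) in CON, which is 8347 RPM in OVER, 9494 RPM in RES and 6882 RPM in CON. The sum in OVER was 1.21 times that in CON, and the sum in RES 1.38 times that in CON. Against CON nuclear tRNA fragments differed the other way, with 121624 RPM in OVER, 168306 RPM in RES and 258687 RPM in CON. Both classes were lower in OVER than in RES. Of all tRNA reads the mitochondrial share was therefore 6.42% (6.38 to 6.47%) in OVER, 5.34% (5.31 to 5.37%) in RES and 2.59% (2.57 to 2.61%) in CON. Reads of mitochondrial rRNA, the other structural RNA made in the organelle, had 16545 RPM in OVER, 43203 RPM in RES and 18526 RPM in CON. For each 100 mitochondrial rRNA reads there were 50.4 mitochondrial tRNA reads in OVER, 21.98 in RES and 37.2 in CON, so the class was highest in OVER on this scale and lowest in RES.

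A few tRNAs supplied most of the reads. The 3 highest held 59.9% of the mitochondrial tRNA reads in OVER, 66.8% in RES and 59.8% in CON, and they were mt-Tyr-GTA, mt-Asn-GTT and mt-Phe-GAA in each library. The tyrosine tRNA mt-Tyr-GTA ranked first everywhere, with 2409 RPM in OVER, 2929 RPM in RES and 2049 RPM in CON. The asparagine tRNA mt-Asn-GTT, whose gene flanks the origin of light-strand replication, had 1750 RPM in OVER, 1274 RPM in RES and 1217 RPM in CON. Both mt-Tyr-GTA and mt-Asn-GTT differed by less than 2-fold between libraries in all 3 comparisons.

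The phenylalanine tRNA mt-Phe-GAA, the first gene downstream of the control region, had 838 RPM in OVER, 2139 RPM in RES and 853 RPM in CON, so RES stood apart and OVER lay within counting error of CON. The methionine tRNA mt-Met-CAT, which in mitochondria serves both initiation and elongation, had 500 RPM in OVER, 582 RPM in RES and 601 RPM in CON. The serine tRNA mt-Ser-TGA, which reads the UCN codons, had 102 RPM in OVER, 372 RPM in RES and 460 RPM in CON. It ranked 12 in OVER but 6 in RES and 5 in CON. The cysteine tRNA mt-Cys-GCA completed the 6 highest of CON, with 694 RPM in OVER, 872 RPM in RES and 354 RPM in CON.

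The other 16 tRNAs ranged in CON between 337 RPM for mt-Pro-TGG and 0.301 RPM (3 reads) for the aspartate tRNA mt-Asp-GTC. The scarce ones, mt-Leu-TAG, mt-Thr-TGT, mt-Trp-TCA, mt-Glu-TTC, mt-His-GTG, mt-Val-TAC and mt-Asp-GTC, stayed at or under 11.3 RPM in OVER, 6.69 RPM in RES and 5.91 RPM in CON.

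**Figure D1:**
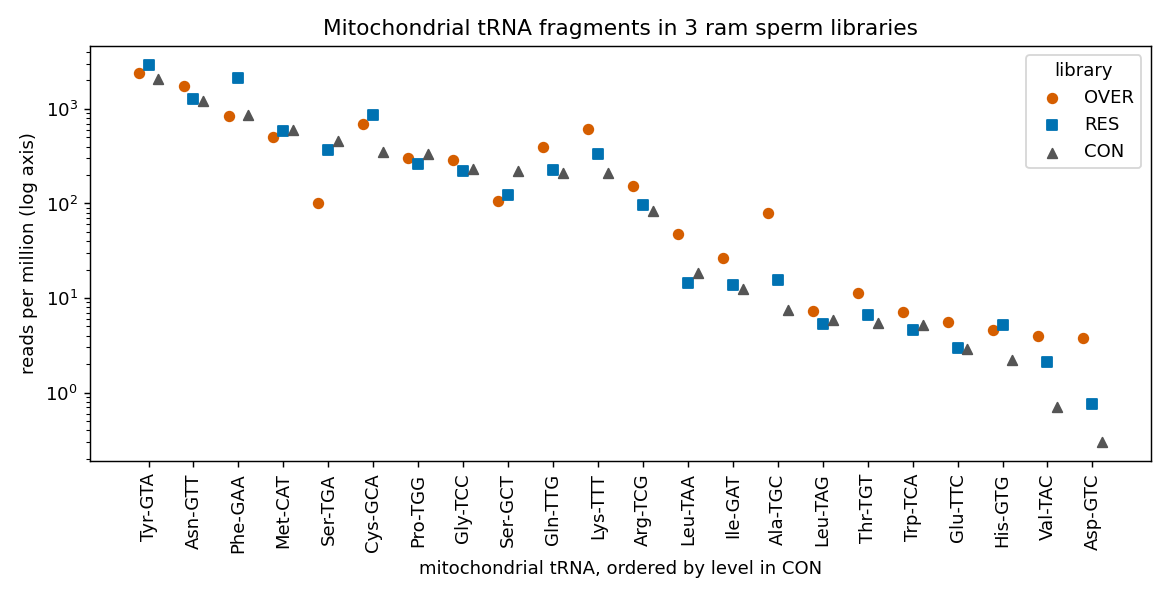
Level of each of the 22 mitochondrial tRNAs in RPM on a log axis, 1 point for each library (OVER, RES, CON), ordered by the level in CON. mt-Tyr-GTA is highest in all 3 libraries (2409 RPM in OVER, 2929 RPM in RES, 2049 RPM in CON), and the points of mt-Ser-TGA and mt-Ala-TGC are the ones most spread apart among tRNAs above 5 RPM in each library.

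Mitochondrial tRNAs were the main source of fragments for some amino acids and a trace for others. Of all tyrosine tRNA reads, mitochondrial and nuclear together, 91.3% were mitochondrial in OVER, 95.7% in RES and 94.6% in CON. For asparagine the share was 93.6% in OVER, 95.9% in RES and 93.9% in CON, and for methionine 90.3% in OVER, 96.98% in RES and 96.6% in CON. For phenylalanine it was 47.1% in OVER, 73.3% in RES and 50.4% in CON. For glutamate, glycine, histidine and valine, whose nuclear tRNAs gave many reads, it was under 1% in each library. It was also under 1% for aspartate, whose mitochondrial tRNA had 31 reads in OVER, 10 in RES and 3 in CON.

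By gene position the set was uneven. The 8 tRNAs encoded on the opposite strand to the majority (Gln, Ala, Asn, Cys, Tyr, Ser-TGA, Glu and Pro) held 68.7% (68.35 to 69.05%) of the reads in OVER, 62.7% (62.4 to 62.9%) in RES and 67.3% (67.0 to 67.7%) in CON, and the other 14 held the rest. The adjacent genes Trp, Ala, Asn, Cys and Tyr alone held 59.2% in OVER, 53.7% in RES and 52.8% in CON. Genes of this cluster did not have like levels. In CON mt-Ala-TGC had 7.51 RPM and mt-Asn-GTT 1217 RPM, though both are among the 8. mt-Trp-TCA, one of the other 14, had 5.21 RPM, against 2049 RPM for mt-Tyr-GTA.

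OVER was first set against CON, with 18 tRNAs that had at least 100 reads in both libraries together and 2-fold as the size rule. Of these, 5 reached 2-fold upward in OVER and 2 reached 2-fold downward. Over the 70 tRNAs compared, nuclear and mitochondrial, the same rule took 35.7% upward and 10.0% downward, so the mitochondrial counts were near or under that background. In it a nuclear read with several tRNA names was counted in full for each, so the 52 nuclear tRNAs are not independent of each other. The median log2 ratio was 0.49 for the 18 and 0.61 for all 70. This median depends on the scale: it was 0.11 with TMM scaling within all tRNAs and -0.21 with DESeq2 size factors.

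The alanine tRNA mt-Ala-TGC was furthest up, with 78.5 RPM in OVER (651 reads), against 7.51 RPM in CON (75 reads). Its log2 ratio was 3.39 (3.04 to 3.75), and RES lay between with 15.7 RPM. Nuclear alanine tRNAs were also higher in OVER, at 1534 RPM, against 263 RPM in CON (log2 ratio 2.54). One 18-nt fragment, gatgtaagatgtagtctt at positions 42 to 59, gave 241 reads in OVER, 53 in RES and 1 in CON, a log2 ratio of 8.18 with an interval of 5.69 to 13.5. Without that sequence the ratio of mt-Ala-TGC was 2.74, and among reads of 25 to 40 nt it was 1.27.

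The other tRNAs past 2-fold upward were mt-Lys-TTT, mt-Leu-TAA, mt-Ile-GAT and mt-Thr-TGT. The lysine tRNA mt-Lys-TTT had 615 RPM in OVER, against 208 RPM in CON (log2 ratio 1.57, 1.49 to 1.64). The leucine tRNA mt-Leu-TAA, which reads the UUR codons, had 47.8 RPM in OVER, against 18.2 RPM in CON (1.39, 1.13 to 1.65). In OVER these 4 tRNAs were mostly short: reads of 15 to 20 nt were 52.7% of mt-Ile-GAT, 57.4% of mt-Thr-TGT, 65.4% of mt-Leu-TAA and 75.5% of mt-Lys-TTT. The share was lower in CON for each of the 4, with 38.2% for mt-Lys-TTT. Such shares were not confined to tRNAs past 2-fold upward. In OVER mt-Ser-GCT, which was lower there than in CON, had 63.1%. Of tRNAs within 2-fold, mt-Trp-TCA had 76.3% in OVER and mt-Gly-TCC 55.8%. Among reads of 25 to 40 nt the log2 ratio of mt-Lys-TTT was 0.05. The ratios of mt-Ile-GAT (1.12, 0.80 to 1.45) and mt-Thr-TGT (1.04, 0.55 to 1.55) had intervals that reached below 2-fold.

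Both mitochondrial serine tRNAs were lower in OVER. mt-Ser-TGA had a log2 ratio of -2.17 (-2.28 to -2.07), a 4.51-fold difference. mt-Ser-GCT, the tRNA that lacks a D arm and reads the AGY codons, had 107 RPM in OVER, against 222 RPM in CON (-1.06, -1.17 to -0.94). Most of the mt-Ser-TGA difference lay in its full 5′ fragment gagagagtcatagtggctatggtgttgg of 28 nt, with 13.6 RPM in OVER, against 178 RPM in RES and 232 RPM in CON. Without it the log2 ratio of mt-Ser-TGA in OVER against CON was -1.37. The next lowest ratios were small, -0.26 for mt-Met-CAT, -0.17 for mt-Pro-TGG and -0.03 for mt-Phe-GAA. Among reads of 15 to 24 nt neither serine tRNA was lower in OVER (mt-Ser-TGA 0.05, mt-Ser-GCT 0.30).

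RES against CON gave fewer differences. Of the 18 tRNAs compared, 3 reached 2-fold upward in RES and 0 downward, where the rule took 7.14% of all 70 tRNAs upward and 5.71% downward. mt-Phe-GAA was furthest up, with a log2 ratio of 1.33 (1.29 to 1.36), followed by mt-Cys-GCA at 1.30 (1.25 to 1.36) and mt-Ala-TGC at 1.06 (0.67 to 1.46), with mt-Lys-TTT at 0.68 and mt-Tyr-GTA at 0.52 next and under 2-fold. The lowest were mt-Ser-GCT (-0.85), mt-Pro-TGG (-0.37), mt-Leu-TAA (-0.34), mt-Ser-TGA (-0.31) and mt-Trp-TCA (-0.17), of which mt-Trp-TCA had an interval that included 0. Nuclear phenylalanine tRNAs had 780 RPM in RES, against 840 RPM in CON (log2 ratio -0.11), and nuclear cysteine tRNAs had 530 RPM in RES, against 714 RPM in CON (-0.43).

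The mt-Phe-GAA difference was carried by pieces that ended in the anticodon. Its commonest fragment, tagcttaaacttaaagcaaggcactG (positions 8 to 33), had 232 RPM in OVER, 928 RPM in RES and 338 RPM in CON, a log2 ratio of 1.46 (1.40 to 1.51) in RES against CON. Without this sequence the ratio of mt-Phe-GAA was 1.23, and among reads of 25 to 40 nt it was 1.32. Scaled to the total of mitochondrial tRNA reads, no tRNA was 2-fold higher in RES than in CON.

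Of the 19 tRNAs compared between OVER and RES, 2 reached 2-fold upward in OVER and 2 downward, where the rule took 28.2% of all 71 tRNAs upward and 9.86% downward. mt-Ala-TGC (log2 ratio 2.33, 2.10 to 2.56) and mt-Leu-TAA (1.73, 1.47 to 1.98) were higher in OVER. mt-Ser-TGA (-1.87, -1.98 to -1.76) and mt-Phe-GAA (-1.35, -1.39 to -1.31) were lower in OVER. The next ratios were under 2-fold, 0.98 for mt-Ile-GAT, 0.89 for mt-Lys-TTT and 0.82 for mt-Gln-TTG upward, and -0.33 for mt-Cys-GCA, -0.28 for mt-Tyr-GTA and -0.22 for mt-Met-CAT downward. Among reads of 15 to 24 nt mt-Phe-GAA was instead higher in OVER (0.35). The 3 comparisons share their libraries, so these ratios follow from the levels already given.

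**Figure D2:**
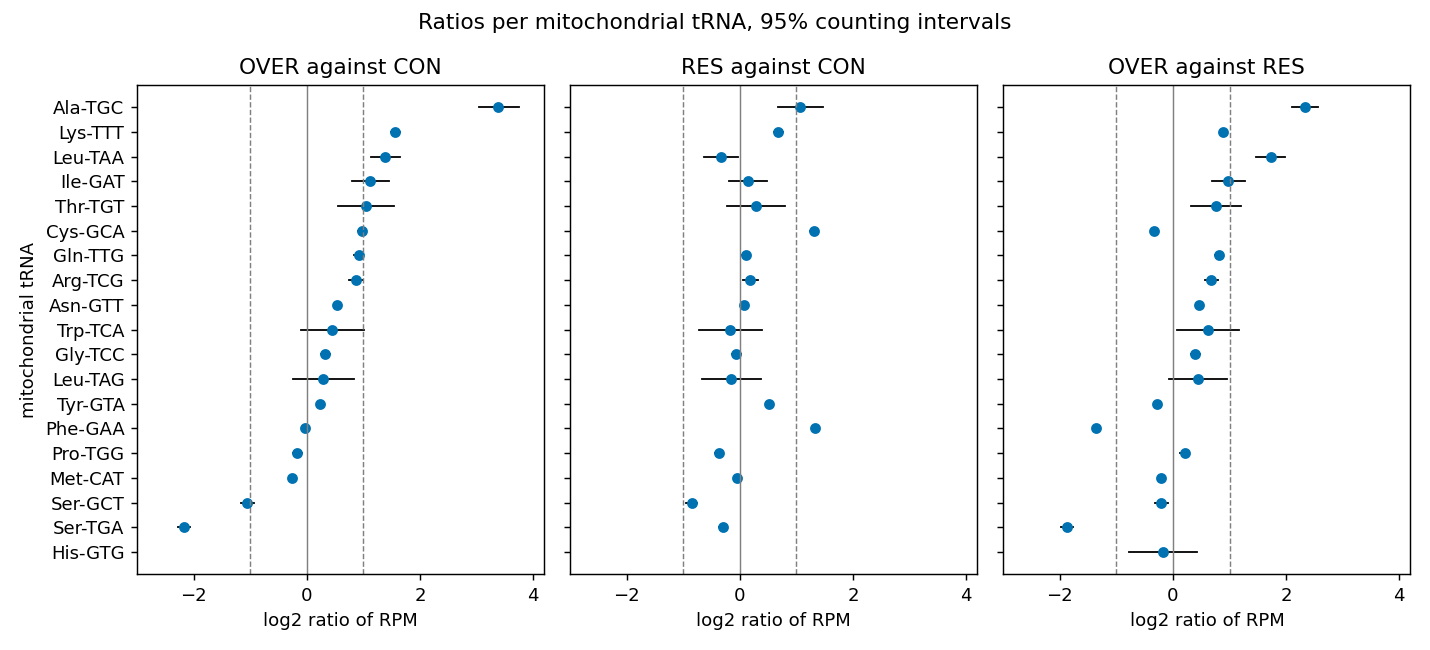
Log2 ratio of RPM for each mitochondrial tRNA with at least 100 reads in the 2 libraries compared, in 3 panels, one for each comparison, with 95% counting intervals as lines and 2-fold marked by dashed lines. In OVER against CON mt-Ala-TGC lies at 3.39 and mt-Ser-TGA at -2.17, and in RES against CON mt-Phe-GAA and mt-Cys-GCA lie at 1.33 and 1.30.

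Fragment length also differed between the libraries. Mitochondrial tRNA reads averaged 22.6 nt in OVER, 25.1 nt in RES and 26.0 nt in CON. Reads of 15 to 20 nt made up 37.7% (37.3 to 38.0%) in OVER, 15.8% (15.6 to 16.0%) in RES and 11.6% (11.4 to 11.8%) in CON. The commonest length was 27 nt in OVER, 26 nt in RES and 27 nt in CON, so the main peak stayed in place while the short reads differed. Nuclear tRNA reads peaked at 30 nt in all 3 libraries, and reads of 15 to 20 nt were 6.04% of them in OVER, 1.80% in RES and 0.513% in CON.

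By length band the sum of mitochondrial tRNA fragments at 15 to 20 nt was 3.94 times as high in OVER as in CON, with 3143 RPM in OVER, 1502 RPM in RES and 798 RPM in CON. At 29 to 33 nt it was lower, with 631 RPM in OVER, 1216 RPM in RES and 1333 RPM in CON. At 34 to 42 nt there were 15.0 RPM in OVER, 115 RPM in RES and 158 RPM in CON. At 21 to 24 nt there were 1551 RPM in OVER, 1504 RPM in RES and 1013 RPM in CON. Set against all reads of the same length, mitochondrial tRNAs were 1.06% of the 15 to 20 nt reads in OVER, 1.45% in RES and 1.34% in CON, and 0.317% of the 29 to 33 nt reads in OVER, 0.293% in RES and 0.283% in CON. On this scale the 15 to 20 nt band was 0.796 times as high in OVER as in CON, the reverse of the RPM. The 21 to 24 nt band was likewise lower in OVER on this scale, with 0.401% in OVER, 0.609% in RES and 0.575% in CON. At 25 to 28 nt they were 2.93% in OVER, 3.30% in RES and 2.16% in CON, and this band was higher in OVER than in CON although its RPM was lower. The part that the short reads of the OVER library as a whole play in the ratios above was not tested beyond these length bands.

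**Figure D3:**
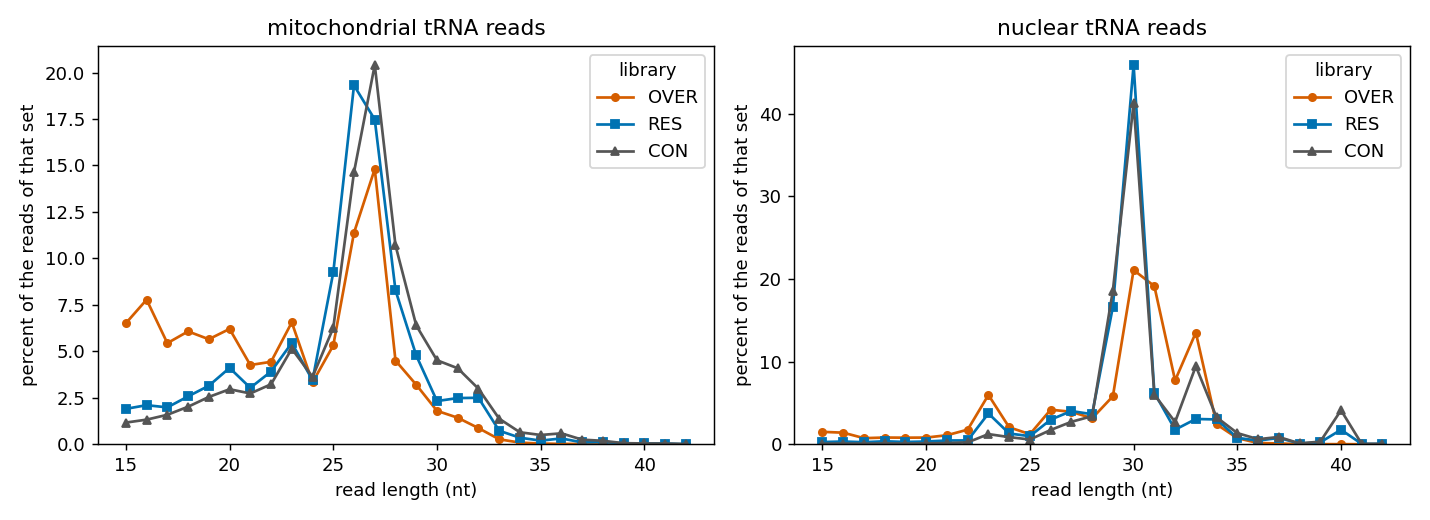
Percent of mitochondrial tRNA reads (left) and nuclear tRNA reads (right) at each read length from 15 to 42 nt, 1 line for each library. The mitochondrial reads peak at 26 to 27 nt in all 3 libraries, with 37.7% of them at 15 to 20 nt in OVER, 15.8% in RES and 11.6% in CON, and the nuclear reads peak at 30 nt.

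The tRNAs were not equally short. In OVER, reads of 15 to 20 nt were 60.02% of mt-Asn-GTT, 54.3% of mt-Cys-GCA and 53.6% of mt-Met-CAT, but 6.67% of mt-Tyr-GTA and 11.97% of mt-Pro-TGG. In CON the same tRNAs had 24.3% (mt-Asn-GTT), 15.3% (mt-Cys-GCA), 24.9% (mt-Met-CAT), 1.45% (mt-Tyr-GTA) and 2.02% (mt-Pro-TGG). The commonest length was the same in all 3 libraries for mt-Tyr-GTA (27 nt), mt-Pro-TGG (30 nt), mt-Phe-GAA (26 nt), mt-Gln-TTG (23 nt) and mt-Arg-TCG (23 nt). The mean length of mt-Tyr-GTA was 25.9 nt in OVER, 26.2 nt in RES and 26.9 nt in CON, and that of mt-Pro-TGG was 26.5 nt in OVER, 27.5 nt in RES and 29.1 nt in CON.

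Single sequences showed the same split. Of 132 mitochondrial tRNA sequences with a mean of at least 10 RPM over the 3 libraries, 47 (35.6%) reached 2-fold upward in OVER against CON, where 37.1% of 3424 annotated sequences did, and 24 (18.2%) reached 2-fold downward, where 29.7% did. Of the 47 higher ones, 45 were among the 69 sequences of 15 to 24 nt, a length at which 62.95% of all annotated sequences reached 2-fold upward. Of the 24 lower ones, 22 were among the 63 sequences of 25 to 42 nt, where 59.70% of all annotated sequences over 24 nt reached 2-fold downward. The short mitochondrial sequences were thus near their background, and the count of lower long ones stood under theirs. In RES against CON 41 were higher and 6 lower, where the background was 35.6% and 11.2%. In OVER against RES 19 were higher, all of 15 to 24 nt, and 29 lower, 25 of them of 25 to 42 nt, where the background was 27.0% and 37.1% at all lengths, 42.26% upward at 15 to 24 nt and 61.59% downward over 24 nt.

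Sequences with the largest or smallest ratios in the comparisons of OVER are shown in pairs from the same tRNA, the short one of each pair being higher in OVER and the long one higher in CON, with anticodon bases in capitals. They were picked out after their values were seen.
mt-Met-CAT, 15 nt: attaagctatcgggc
mt-Met-CAT, 27 nt: agctaattaagctatcgggccCATacc
mt-Asn-GTT, 15 nt: tttcgtgggggtgga
mt-Asn-GTT, 31 nt: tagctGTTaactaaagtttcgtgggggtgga
The short mt-Met-CAT fragment had 32.5 RPM in OVER, 5.24 RPM in RES and 2.50 RPM in CON, and the long one had 2.05 RPM in OVER, 30.7 RPM in RES and 50.5 RPM in CON. Their log2 ratios in OVER against CON were 3.70 (3.10 to 4.35) and -4.62 (-5.41 to -3.93), although the short sequence lies wholly within the long one. The mt-Asn-GTT fragments share their 3′ end at position 59 and differ in where they begin. The short one had 25.9 RPM in OVER, 3.95 RPM in RES and 2.80 RPM in CON, and the long one 2.65 RPM in OVER, 9.57 RPM in RES and 26.5 RPM in CON.

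For mt-Cys-GCA the fixed end was the 5′ end. The 16-nt fragment ggtcctgtagtgaatt had 90.4 RPM in OVER, 13.7 RPM in RES and 5.11 RPM in CON (log2 ratio in OVER against CON 4.15, 3.74 to 4.58). The 20-nt fragment ggtcctgtagtgaattaaca had 119 RPM in OVER, 99.3 RPM in RES and 23.8 RPM in CON, and the 22-nt fragment ggtcctgtagtgaattaacata had 20.9 RPM in OVER, 46.9 RPM in RES and 6.11 RPM in CON. The 16-nt piece was thus highest in OVER and the 22-nt piece highest in RES. For mt-Lys-TTT the 16-nt 3′ side fragment aaagactgagaatatt had 166 RPM in OVER, 41.6 RPM in RES and 29.4 RPM in CON.

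In contrast, the leading mt-Tyr-GTA fragment aatggctgagtaaagcaatagactGTA of 27 nt had 644 RPM in OVER, 820 RPM in RES and 645 RPM in CON. Its log2 ratio in OVER against CON was 0.00 with an interval of -0.05 to 0.05. By mean RPM this sequence was the most abundant of the members, though second to the mt-Phe-GAA fragment of 928 RPM in RES. Its RPM was thus level between OVER and CON to within counting error. All reads of 27 nt had 24883 RPM in OVER, against 43972 RPM in CON, so among reads of its length the fragment was higher in OVER.

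By the end that the annotation names, mitochondrial fragments differed from nuclear ones. Reads whose name carries the 5′-end suffix were 17.1% (16.8 to 17.3%) of the mitochondrial reads in OVER, 18.04% (17.82 to 18.25%) in RES and 20.9% (20.6 to 21.2%) in CON, while among nuclear tRNA reads they were 64.2% in OVER, 66.4% in RES and 76.7% in CON. Most mitochondrial reads had no end suffix, 82.7% in OVER, 81.8% in RES and 79.0% in CON. Reads with a 3′-end suffix were 0.0752% in OVER, 0.148% in RES and 0.0699% in CON, and those with the CCA tail were 0.140% in OVER, 0.0272% in RES and 0.0582% in CON. The commonest CCA fragment, tactgactccatgaacacca of mt-Phe-GAA, had only 13 reads in OVER, 10 in RES and 9 in CON.

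Reads of the 12 tRNAs with at least 1000 reads over the 3 libraries were placed along the joined sequences, which allowed 2 mismatches and placed at least 99.3% of the reads of each in every library. A read that ended at or before the last anticodon base was called a 5′ side piece, one that started at or after the first anticodon base a 3′ side piece, and the rest spanned the anticodon. This grouping was chosen after the reads had been seen. By this grouping 61.6% of the placed reads in OVER were 5′ side pieces, 74.0% in RES and 65.1% in CON. Spanning pieces were 8.90% in OVER, 12.03% in RES and 19.9% in CON, and 3′ side pieces were 29.5% in OVER, 14.01% in RES and 15.0% in CON.

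The 3′ side pieces had 2399 RPM in OVER, 1320 RPM in RES and 1026 RPM in CON. All 10 tRNAs with at least 100 such reads in both libraries together had more in OVER than in CON, 7 of them at least 2-fold, with a median log2 ratio of 2.03. Over 37 nuclear tRNAs, counted by reads with a 3′-end or CCA suffix, 23 had more in OVER than in CON. Of the 37, 18.9% reached 2-fold upward and the median was 0.31, but those suffixes mark only reads that reach the 3′ end. For comparison, 5′ side pieces reached 2-fold upward in 3 of 10 tRNAs and downward in 1 (median 0.43). Of 42 nuclear tRNAs, counted by reads with a 5′-end suffix, 13 reached 2-fold upward and 12 downward (median 0.22). That suffix marks only reads named for the 5′ end, while the 5′ side pieces also hold reads that start further in. These counts are thus not of like reads. Spanning pieces had 725 RPM in OVER, 1133 RPM in RES and 1357 RPM in CON, and in OVER against CON they were at least 2-fold lower in 4 of 10 tRNAs and higher in 0. Nuclear tRNAs were not counted by spanning pieces, so this count has no background of its own kind. The 2-fold rule took 10.0% of all 70 tRNAs downward by all their reads, and 59.70% of annotated sequences over 24 nt. The excess of 3′ side pieces was one of short reads: at 15 to 24 nt they had 2241 RPM in OVER, 1105 RPM in RES and 747 RPM in CON, and at 25 to 42 nt they had 158 RPM in OVER, 215 RPM in RES and 279 RPM in CON. At 15 to 24 nt the 5′ side pieces were also higher in OVER, 1925 RPM in OVER, 1499 RPM in RES and 699 RPM in CON. Counted by reads of 15 to 24 nt alone, all 67 tRNAs compared, nuclear and mitochondrial, had more in OVER than in CON. Of these, 82.1% reached 2-fold upward, so neither count for 3′ side pieces was above that of short tRNA reads as a whole.

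**Figure D4:**
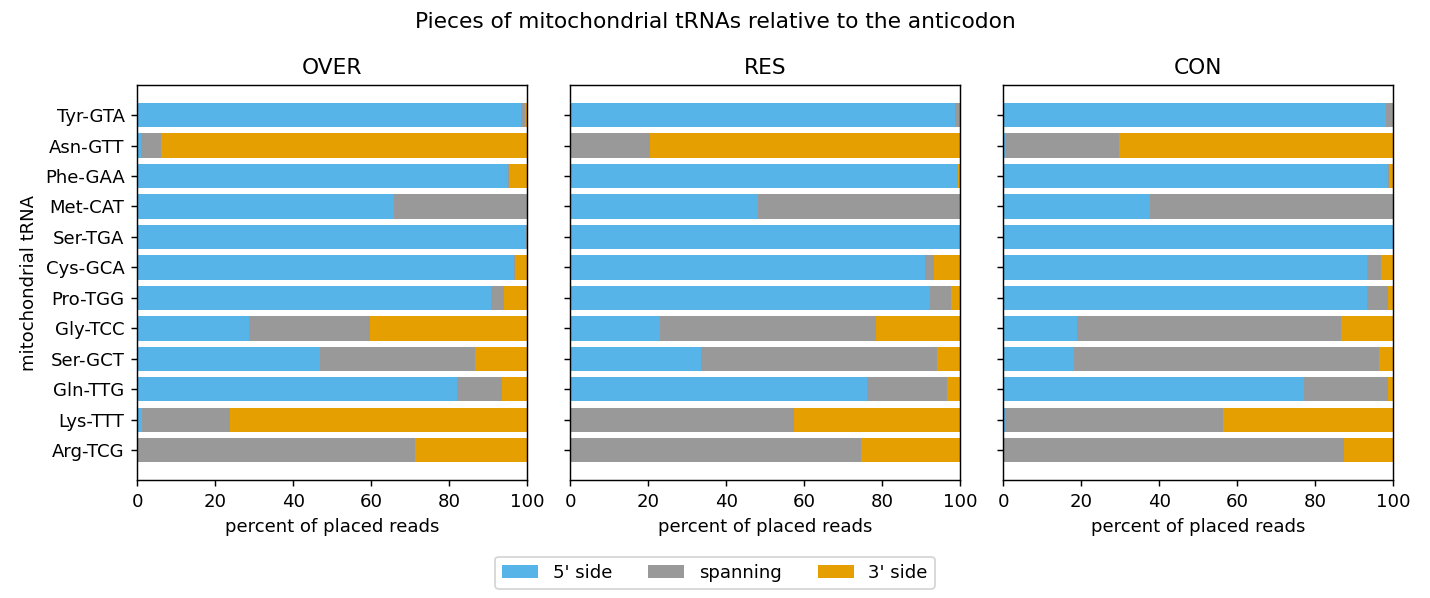
Percent of placed reads on the 5′ side of the anticodon, spanning it or on its 3′ side for the 12 mitochondrial tRNAs with at least 1000 reads, 1 panel for each library. mt-Tyr-GTA, mt-Phe-GAA and mt-Ser-TGA are almost wholly 5′ side in all 3 libraries, and mt-Asn-GTT is mostly 3′ side (93.8% in OVER, 79.4% in RES, 70.3% in CON). The spanning share is lowest in OVER in every tRNA shown except mt-Phe-GAA and mt-Ser-TGA.

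Where fragments ended depended on the tRNA. Of mt-Tyr-GTA reads, 98.1% in OVER, 98.4% in RES and 98.1% in CON ended within the anticodon, and the commonest 3′ end was its last base at position 32 in all 3 libraries. Of mt-Phe-GAA reads, 79.4% in OVER, 95.4% in RES and 92.8% in CON ended within the anticodon, and the commonest end was its first base at position 33. The commonest 5′ start was position 6 for mt-Tyr-GTA and position 8 for mt-Phe-GAA in every library, so the leading pieces of both lacked the first bases of the mature tRNA. Reads that started at position 1 were 3.76% of mt-Tyr-GTA in OVER, 5.54% in RES and 8.19% in CON. These were the same shares as those of mt-Tyr-GTA reads named with the 5′-end suffix.

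Other tRNAs had their own common end. mt-Ser-TGA most often ended at position 28, 3 bases before its anticodon, in all 3 libraries, at 33.5% of reads in OVER, 57.8% in RES and 60.5% in CON. mt-Asn-GTT most often ended at position 59, at 30.4% in OVER, 21.6% in RES and 30.2% in CON. mt-Lys-TTT most often ended at position 52 (58.995% in OVER, 33.7% in RES, 44.6% in CON) and mt-Arg-TCG at position 50 (63.5% in OVER, 66.6% in RES, 44.4% in CON). These ends were the same position in each library even where lengths differed. The commonest end differed in 4 other tRNAs. mt-Met-CAT most often ended at position 30 in OVER but at position 36 in RES and CON, mt-Ser-GCT at position 19 in OVER but at 41 in RES and CON, and mt-Cys-GCA at position 20 in OVER but at 29 in RES and CON. In mt-Gly-TCC it was position 53 in OVER, 52 in RES and 53 in CON.

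Some positions were read as more than 1 base. Position 9 of several mammalian mitochondrial tRNAs is known to carry a methylated A or G which in humans is made by a protein that also takes part in cutting the tRNAs free, and such methyl groups can leave other bases in cDNA. Whether the bases here come from a modified position was not tested. In mt-Tyr-GTA, 36.2% of reads over position 9 had another base than the commonest one, G, in OVER (17097 reads over it), 36.4% in RES and 36.6% in CON. The leading fragment is shown in its 4 forms, with position 9 in capitals.
mt-Tyr-GTA form 1: aatGgctgagtaaagcaatagactgta
mt-Tyr-GTA form 2: aatTgctgagtaaagcaatagactgta
mt-Tyr-GTA form 3: aatCgctgagtaaagcaatagactgta
mt-Tyr-GTA form 4: aatAgctgagtaaagcaatagactgta
Over all mt-Tyr-GTA reads that cover position 9, not these 4 sequences alone, the bases came in the same order in every library. G9T was 22.3% (21.7 to 22.9%) in OVER, 21.5% (21.03 to 21.92%) in RES and 21.997% (21.41 to 22.59%) in CON. G9C was 8.25% in OVER, 8.75% in RES and 8.32% in CON. G9A was 5.69% in OVER, 6.17% in RES and 6.32% in CON. In these tokens the commonest base of the joined tRNA comes first, then the position counted from its 5′ end, then the base read. The make-up of position 9 in mt-Tyr-GTA was thus nearly level across the libraries.

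Over the 14 tRNAs with positions covered by at least 100 reads in each library, 10 had a value for position 9, and the share of another base there, pooled over the libraries, had a median of 3.07% and exceeded 5% in 4. Over the other 510 positions the median was 0.0633%, and 6 exceeded 5%. The others above 5% at position 9 were mt-Leu-TAA (8.27%), mt-Cys-GCA (6.18%) and mt-Pro-TGG (5.99%). Unlike mt-Tyr-GTA, some of these differed between libraries: A9T of mt-Pro-TGG was 4.64% (3.79 to 5.63%) in OVER, 2.27% (1.77 to 2.85%) in RES and 4.32% (3.64 to 5.09%) in CON, and A9T of mt-Cys-GCA was 3.91% (3.42 to 4.46%) in OVER, 3.44% (3.10 to 3.80%) in RES and 5.89% (5.12 to 6.73%) in CON. At the low end, mt-Gln-TTG, which has G there as well, had 0.0461%, and mt-Ser-GCT, with A, had 0 of 482 reads in OVER, 0 of 885 in RES and 0 of 954 in CON.

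Outside position 9, the highest shares were at position 26 of mt-Asn-GTT (32.9% in OVER, 33.6% in RES and 30.8% in CON, over 225 to 412 reads) and at position 34 of mt-Pro-TGG, the first base after the anticodon (20.5% in OVER, 32.7% in RES and 28.3% in CON, over 127 to 198 reads). That base of mt-Pro-TGG was most often replaced as G34A, 13.4% (7.995 to 20.56%) in OVER, 23.0% (17.3 to 29.5%) in RES and 20.2% (14.8 to 26.5%) in CON, intervals that overlap. In mt-Cys-GCA, T29A stood at 10.2% (8.52 to 12.1%) in OVER, 7.76% (6.98 to 8.59%) in RES and 5.47% (4.48 to 6.60%) in CON. Position 29 was also the commonest 3′ end of mt-Cys-GCA in RES and CON. Placement allowed a mismatch at the last base of a read. Whether the A there is a base added to a shorter read was not tested. Nearly all member reads were within 1 mismatch of the joined sequences, so reads with more changes may have been lost from the annotation. The commonest base is also not known to be that of the genome. Reads with G9T, G9C or G9A of mt-Tyr-GTA were all flagged as matching the genome, so the flag does not tell which base is genomic.

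**Figure D5:**
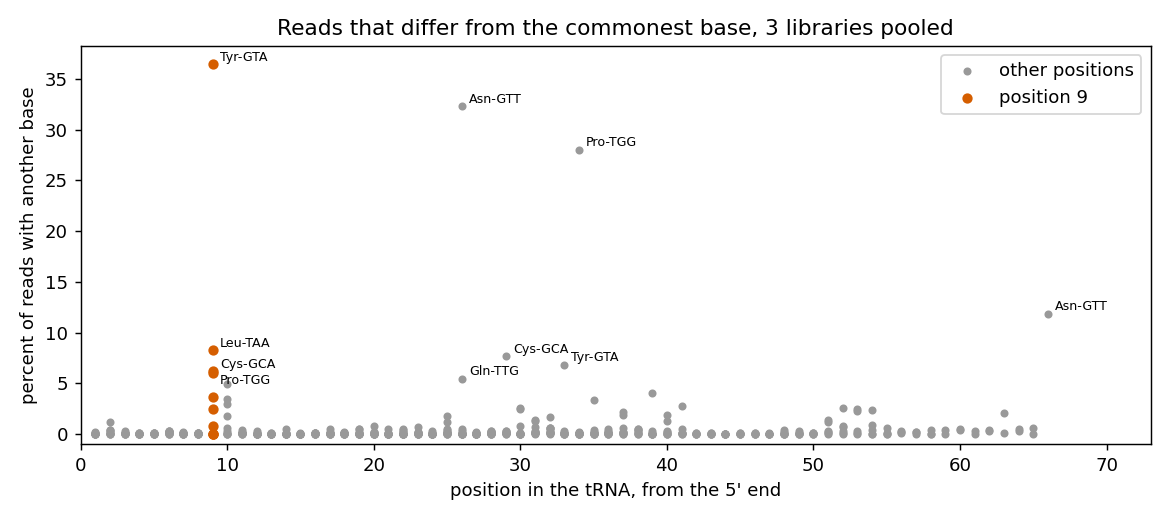
Percent of reads with a base other than the commonest at each position, pooled over the 3 libraries, for the 520 positions of 14 mitochondrial tRNAs with at least 100 reads in each library, counted from the 5′ end. Position 9 is marked in colour and positions above 5% are named: mt-Tyr-GTA stands at 36.4% at position 9, mt-Asn-GTT at 32.3% at position 26 and mt-Pro-TGG at 28.02% at position 34.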

How the data were processed

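Small RNA libraries were made per the labels' protocols with the NEBNext small RNA kit after selection of small RNAs. The deposited tables hold, per the file headers, distinct sequences with length (an other unit, in nt), whole-number read counts, a genome flag and an annotation. The counts are raw. Of tools, the submitters' processing notes hold edgeR alone. Aligner, annotation software and build: not given in the sources used here. Members and all lists were chosen with earlier results of these data known.

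Of the 9 tables, the 3 of each group agreed in sequences, read counts and genome flags (0 to 3 sequences differed in annotation terms, none of them a member), so each group was counted as 1 library and no test was run. RPM used all reads of a library. For the tRNA backgrounds and for the TMM and DESeq2 factors, a nuclear read with several tRNA names was counted in full for each name. The tRNA total behind these factors was thus 4456854 in CON, where 2582707 reads were nuclear tRNA and 68714 mitochondrial tRNA. Log2 ratios carry the exact binomial 95% interval of the 2 counts, shares an exact Clopper-Pearson interval, and a count of 0 was set to 3 reads. PCR reads are not independent molecules. Named tRNAs were the 6 highest in CON and the 5 largest and 5 smallest ratios of a comparison with at least 100 reads. Named sequences were the most abundant of a tRNA or end class, or had the largest and smallest ratios, a choice added after values were seen, as were the placement on joined tRNAs (11 bases of overlap) and the substitutions.

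Alternatives were edgeR's TMM and DESeq2 size factors within all tRNAs, scaling to mitochondrial tRNA reads, no read minimum, length windows, genome-matching sequences, an equal split and other denominators. The ratio function was tested on simulated data. Versions were Python 3.11.15, numpy 2.4.6, pandas 2.3.3, scipy 1.17.1, matplotlib 3.10.9, R 4.3.3, edgeR 4.0.16 and DESeq2 1.42.0.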

Additional observations from a re-analysis of the deposited data

Results flagged for a closer look

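Reads annotated as mitochondrial DNA, which lie outside the tRNA names, had 43.3 RPM in OVER, 910 RPM in RES and 221 RPM in CON, a log2 ratio of 2.04 (1.97 to 2.11) in RES against CON. They stood out as a signal in data that no comparison above uses, higher in RES than in CON beyond counting error.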

How the results depend on the processing

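Each group was counted as 1 library, and whether it is a pool is not known. Depth limits most the scarce tRNAs, 4 of which had under 100 reads in OVER against CON, and leaving out a replicate table changes nothing. No paired analysis was possible because the tables of a group hold the same reads. The results rest most on read length, and the cause was not tested. The length window of 15 to 24 nt, the window scaled within itself and the runs without the commonest sequence were chosen after seeing the data. Of 339 single ratios under the alternatives that change the reads or the scaling, 86 stayed within their interval, 253 moved outside it, and 59 changed sign, 3 of them past 2-fold as reported. Sign changes numbered 11 with DESeq2 size factors, 5 with edgeR's TMM, 7 when scaled to mitochondrial tRNA reads and 15 for reads of 15 to 24 nt.

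The mitochondrial tRNA share was 1.33% in OVER, 1.41% in RES and 1.20% in CON of annotated reads, 6.42% in OVER, 5.34% in RES and 2.59% in CON of tRNA reads, 1.15% in OVER, 1.001% in RES and 0.666% in CON of reads of 25 to 40 nt, and 1.02% in OVER, 1.10% in RES and 0.883% in CON of genome-matching reads. OVER and RES stayed above CON under all 4, and OVER was above RES for tRNA reads and for reads of 25 to 40 nt.

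The number of tRNAs at least 2-fold higher in OVER against CON, 5 as reported, was 3 with edgeR's TMM (median log2 ratio 0.11), 1 with DESeq2 size factors, 3 when scaled to mitochondrial tRNA reads, 8 with no read minimum, 1 for reads of 25 to 40 nt (median -0.55) and 12 for reads of 15 to 24 nt (median 1.45). The number lower, 2 as reported, was 4 for reads of 25 to 40 nt and 0 for reads of 15 to 24 nt. For RES against CON the number higher, 3 as reported, was 0 when scaled to mitochondrial tRNA reads, 6 with no read minimum, 1 for reads of 25 to 40 nt and 5 for reads of 15 to 24 nt. The number lower, 0 as reported, was 1 when scaled to mitochondrial tRNA reads and 1 for reads of 25 to 40 nt, also when these were scaled to all reads of that length. For OVER against RES the number higher, 2 as reported, was 5 when scaled to mitochondrial tRNA reads, 1 for reads of 25 to 40 nt and 7 for reads of 15 to 24 nt. The number lower, 2 as reported, was 4 for reads of 25 to 40 nt, 1 when these were scaled to all reads of that length, 0 for reads of 15 to 24 nt and 1 without the commonest sequence of each tRNA. Keeping genome-matching sequences or splitting reads equally between names tests nothing here. Nearly all member reads are flagged as matching the genome, also those with a substituted base, and each has 1 name.

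Among ratios past 2-fold, the sign changed at 15 to 24 nt for mt-Ser-GCT (0.30) and mt-Ser-TGA (0.050) in OVER against CON and for mt-Phe-GAA (0.35) in OVER against RES. The 5′-end share was 15.6% in OVER, 18.2% in RES and 22.8% in CON for reads of 25 to 40 nt, and 14.4% in OVER, 14.1% in RES and 15.7% in CON with each distinct sequence counted once. Without mt-Tyr-GTA the share of 15 to 20 nt was 50.2% in OVER, 20.6% in RES and 15.9% in CON.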
